A study of Bos taurus with 179 samples.

Results

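The comparison described here sets growing bovine oocytes of 70–79 μm in diameter against oocytes below 70 μm, the 2 smallest size groups of the series (<60 μm and 60–69 μm) as 1 class. The study isolated 179 single oocytes of Bos taurus, measured each one and sequenced its polyadenylated mRNA. The sample table of the study lists all but 14 of them, and 69 of the listed oocytes were below 80 μm. The study had filtered its samples by reads, expressed genes and the share of mitochondrial reads. Members were chosen by the size label of each oocyte and by that list, which gave 46 oocytes below 70 μm (21 of <60 μm and 25 of 60–69 μm) and 23 of 70–79 μm. The other 96 listed oocytes, of 80 μm and more, entered the fit for the estimate of the spread.

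No oocyte received a treatment that the labels name. The oocytes came from abattoir ovaries, were freed by slicing the cortex, and were stripped of their surrounding cells by pipetting before they were measured. Diameters ran from 48 to 69.63 μm in the smaller class and from 70.36 to 79.5 μm in the larger one. The libraries form 2 replicates. Reads were 150 bp long in replicate 1, whereas those of replicate 2 had 75 bp. Replicate 1 held 3, 17 and 16 oocytes of the <60, 60–69 and 70–79 μm groups, and replicate 2 held 18, 8 and 7. The smaller class of replicate 1 therefore consisted mostly of 60–69 μm oocytes and that of replicate 2 mostly of <60 μm oocytes. Animals are not named, so no p-value measures the spread between animals, and oocytes of 1 animal may lie in several groups and in both replicates. Where libraries were added up by size group and replicate, p-values measure the spread between those sums. Where single oocytes were the units, they measure the spread between oocytes.

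A mammalian oocyte grows while it is arrested in meiotic prophase, inside a follicle whose granulosa cells feed it through gap junctions. During this phase it transcribes and stores the mRNA that will carry it through maturation and the first cleavages, secretes growth factors such as BMP15, and builds the zona pellucida. The sizes compared here belong to follicles that pass from the secondary to the early antral stage. All levels below are relative, given as CPM (counts scaled to the library's total after that total was adjusted by TMM scaling). A change is therefore relative to the other mRNAs of the same oocyte, and the amount of mRNA per oocyte is not measured.

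Total counts per oocyte ranged from 319492 to 6270510 below 70 μm (median 2461264.5) and from 431855 to 7427594 at 70–79 μm (median 1839094). One count in a library of median depth is thus worth less than 1 CPM. Markers of the cell types that the libraries could hold were looked up first. Of 31 oocyte and maternal-effect genes, 9 could be paired with an ID, and their summed level ran from 4300 to 10100 CPM below 70 μm and from 5610 to 15800 CPM at 70–79 μm. Of 18 granulosa and cumulus cell markers 7 were paired, and they summed to 0.825 to 35.8 CPM in the smaller and 2.84 to 40.9 CPM in the larger oocytes, with AMHR2 and CYP11A1 at 0 in every 70–79 μm oocyte of replicate 2. The medians of these sums were 13.2 and 12.4 CPM below 70 μm (replicates 1 and 2) and 21.1 and 12.6 CPM at 70–79 μm. Theca and stroma markers (7 of 10 paired) reached at most 40.8 and 54.1 CPM, with medians of 11.3 and 10.4 CPM below 70 μm and of 25.8 and 8.1 CPM at 70–79 μm. Among them COL1A2 and ACTA2 had log2 fold changes of 3.24 and 1.41 in replicate 1 and of -0.03 and -0.29 in replicate 2. Neither was called from the sums, but COL1A2 was called over all single oocytes (edgeR adjusted p = 0.0158) and both were called over those of replicate 1 alone (edgeR adjusted p = 0.000254 for COL1A2 and 0.0454 for ACTA2). COL1A1 and DCN were at 0 in every oocyte of 70–79 μm. Endothelial and blood markers (13 of 17 paired) had medians of 101 CPM below 70 μm and 137 CPM at 70–79 μm in replicate 1, and of 46.2 and 55.5 CPM in replicate 2. CD14 was at 0 in all 69 oocytes. CLDN5 of the endothelial list had a log2 fold change of 3.10 from the sums, with -0.59 in replicate 1 and 3.49 in replicate 2. CD44 of the cumulus list had 0.98 from the sums, with 1.65 and 0.38. Neither was called from the sums (edgeR adjusted p = 0.616 and 0.585), while CD44 was called over oocytes of replicate 1 alone (edgeR adjusted p = 0.00141). CD163 of the blood markers and CHST8 of the granulosa list went the other way, at -6.16 and -6.58 from the sums. They had -1.1 and -2.1 in replicate 1 and -3.2 and -1.5 in replicate 2, with sums of 0 CPM at 70–79 μm. These 2 were not called from the sums either (edgeR adjusted p = 0.528 and 0.654). The part of other cells and of depth in the results below was not tested.

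Counts were added up over the oocytes of a size group within each replicate, and edgeR's quasi-likelihood test was fitted to the 16 sums with the replicate as a block. The contrast is 70–79 μm minus the mean of the <60 and 60–69 μm groups. Of 14087 genes tested, 19 were called at an adjusted p below 0.05, which is 0.135% of the genes tested, and all 19 were upregulated at 70–79 μm. None was called lower in this test, in which 362 genes had a negative change at an unadjusted p below 0.05 against 701 with a positive one. DESeq2 on the same sums called 69 higher and 12 lower. Without the replicate block, edgeR called 0 genes, with 168 higher and 56 lower at an unadjusted p below 0.05. With every oocyte thinned to 250000 counts it called 33 genes, 14 of the 19 among them. The median log2 fold change of all genes was 0.02.

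**Figure D1:**
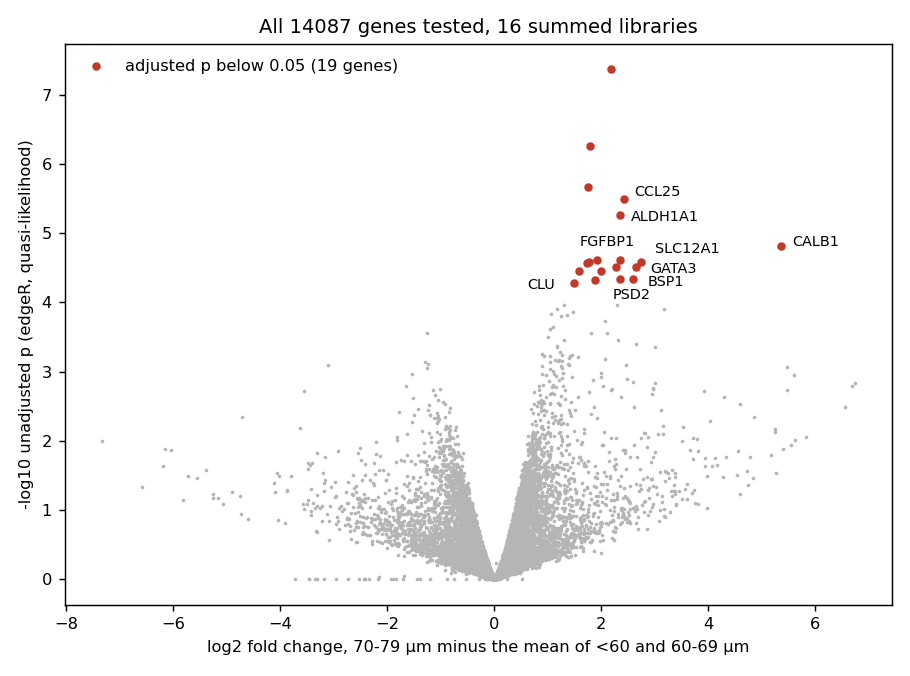
Each point is 1 of the 14087 genes tested, by its log2 fold change (x axis, 70–79 μm minus the mean of the 2 smaller groups) and its unadjusted p on a −log10 scale (y axis). The 19 called genes (red) all lie on the right, between 1.49 and 5.37, and the 9 of them that carry a symbol are labelled.

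Of the 19 DEGs, 9 carried a symbol and 10 could be given only by their ID. The symbols come from incomplete lists in which names from A to C prevail, so a missing name reflects the lists available and not the annotation of the genes. Of all genes tested, 2924 carried a symbol and 11163 did not, so symbols were more frequent among the DEGs. Whether the way the lists were made favours such genes was not tested. Those with a symbol fall into secreted proteins (CCL25, FGFBP1, BSP1 and CLU), a retinoic acid enzyme (ALDH1A1), a calcium-binding protein (CALB1), an ion transporter (SLC12A1), a transcription factor (GATA3) and an exchange factor for ARF GTPases (PSD2).

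CCL25, a chemokine known for drawing T cells to thymus and gut, had in replicate 1 a lowest, median and highest level of 0, 5.18 and 18.9 CPM in the 20 oocytes below 70 μm and of 1.88, 19.3 and 43.9 CPM in the 16 of 70–79 μm. In replicate 2 the 26 smaller oocytes had 0, 1.46 and 6.35 CPM and the 7 larger ones 1.9, 11 and 15.9 CPM. The classes overlapped, yet 8 of 16 and 5 of 7 larger oocytes lay above every smaller oocyte of their replicate. The log2 fold change was 2.42 ± 0.37 (SE, edgeR adjusted p = 0.0114). It was 2.86 against <60 μm and 1.98 against 60–69 μm.

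BSP1, a binder of sperm protein best known from seminal plasma, reached the highest level of a single oocyte among the named DEGs. Below 70 μm it ran from 0 to 121 CPM with a median of 2.09 CPM in replicate 1, and from 0 to 151.3 CPM with a median of 23.2 CPM in replicate 2. At 70–79 μm the medians were 33 and 69.6 CPM, and 1 oocyte of replicate 2 reached 456.2 CPM. The 2 classes overlapped widely, and only 1 of 16 and 3 of 7 larger oocytes exceeded all smaller ones. The log2 fold change was 2.59 ± 0.49 (SE, edgeR adjusted p = 0.0372).

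FGFBP1, which releases fibroblast growth factors from the matrix, had medians of 0.344 and 0 CPM below 70 μm in replicates 1 and 2 and of 3.48 and 3.97 CPM at 70–79 μm. The highest smaller oocytes had 7.35 and 13.9 CPM, and 3 of 16 and 1 of 7 larger ones exceeded them. Single oocytes carried much of the sum of the larger group: 1 oocyte supplied 46.3% of its counts in replicate 1 and 65.8% in replicate 2. Its log2 fold change was 2.34 ± 0.42 (SE, edgeR adjusted p = 0.0334), with values of 2.46 and 2.22 against the <60 and 60–69 μm groups.

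CLU, the extracellular chaperone clusterin, was present in every oocyte of 70–79 μm. In replicate 1 it ran from 0 through a median of 13.4 to 42.9 CPM below 70 μm and from 15 through 34.7 to 107 CPM at 70–79 μm, so that all 16 larger oocytes lay above the median of the smaller ones. In replicate 2 the medians were 3.13 and 11.7 CPM. Its log2 fold change of 1.49 ± 0.29 (SE, edgeR adjusted p = 0.0394) was the smallest of the 19. Levels of CLU also differed between the replicates at the same size, with medians of 34.7 and 11.7 CPM at 70–79 μm.

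ALDH1A1, which makes retinoic acid from retinal, was spread widely within each group. Below 70 μm it ran from 0 to 92 CPM in replicate 1 (median 9.62) and from 0 to 65.3 CPM in replicate 2 (median 3.79). At 70–79 μm the medians were 35.3 and 43.4 CPM and the highest values 135 and 107 CPM, while 1 oocyte in each replicate still held no count. The log2 fold change was 2.34 ± 0.38 (SE, edgeR adjusted p = 0.0156). It was 3.64 against <60 μm and 1.04 against 60–69 μm, and in replicate 2 the median of the 8 oocytes of 60–69 μm was already 18.8 CPM.

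CALB1 encodes calbindin, a cytosolic calcium buffer. It had 0 counts in all 21 oocytes of <60 μm, in sums of 13452646 counts in replicate 1 and 43888471 in replicate 2. Against the level that 3 counts in the sum would give (0.22 and 0.0634 CPM, counting error only), the sums of 70–79 μm, at 5.24 and 3.02 CPM, were at least 23.8-fold higher and at least 47.6-fold higher. The sum of 60–69 μm in replicate 1 was 0.531 CPM, nearer to that floor than to the 70–79 μm sum. Counts were held by 9 of 17 and 7 of 8 oocytes of 60–69 μm, with medians of 0.48 and 5.64 CPM, against 13 of 16 and 3 of 7 oocytes of 70–79 μm. The median at 70–79 μm was 2.35 CPM in replicate 1 and 0 in replicate 2, below the 60–69 μm median of that replicate. The fitted log2 fold change (5.37, edgeR adjusted p = 0.0334) depends on how counts of 0 are handled and is no bound, and against 60–69 μm alone it was 0.68.

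SLC12A1, a sodium, potassium and chloride cotransporter described mainly in kidney, and GATA3, a zinc finger transcription factor, were near the limit of detection below 70 μm. SLC12A1 rose from medians of 0.441 and 0.265 CPM (replicates 1 and 2) to 3.06 and 4.57 CPM, with highest values of 13 and 18.4 CPM, and 5 of the 7 larger oocytes of replicate 2 exceeded all 26 smaller ones. Its log2 fold change was 2.74 ± 0.5 (SE, edgeR adjusted p = 0.0334). At 250000 counts per oocyte SLC12A1 lost its call, as did CALB1 and FGFBP1 among the named DEGs. GATA3 had a median of 0 in both replicates below 70 μm and of 3.96 and 1.52 CPM at 70–79 μm. At 250000 counts per oocyte, GATA3 was seen in 0 of 3 and 4 of 17 oocytes of <60 and 60–69 μm and in 10 of 16 of 70–79 μm in replicate 1. In replicate 2 it was seen in 0 of 18, 2 of 8 and 1 of 7 oocytes, where the counts are too few to compare the groups. The log2 fold change of GATA3 was 2.65 ± 0.49 (SE, edgeR adjusted p = 0.0334). Both genes had 0 counts in the <60 μm sum of replicate 1, where the 70–79 μm sum was at least 16.1-fold higher for SLC12A1 and at least 25.4-fold higher for GATA3.

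PSD2, a guanine nucleotide exchange factor for ARF6, separated the classes best among the named DEGs in replicate 1. There 13 of 16 oocytes of 70–79 μm lay above all 20 smaller ones, whose highest value was 3.08 CPM. Medians rose from 0.727 to 5.23 CPM in replicate 1 and from 0 to 7.62 CPM in replicate 2, where 2 of the 7 larger oocytes held no count. Its log2 fold change was 2.35 ± 0.45 (SE, edgeR adjusted p = 0.0372).

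The genes with the smallest adjusted p had no symbol. ENSBTAG00000007169 had a log2 fold change of 2.18 ± 0.25 (SE, edgeR adjusted p = 0.000612). Its median rose from 20.7 to 84.1 CPM in replicate 1 and from 5.08 to 34.2 CPM in replicate 2, and 15 of 16 and 6 of 7 larger oocytes lay above the median of the smaller ones. ENSBTAG00000039808 followed at 1.78 ± 0.24 (SE, edgeR adjusted p = 0.00395), with medians of 46.6 and 131.4 CPM in replicate 1 and of 7.14 and 43.2 CPM in replicate 2. For this gene all 16 and all 7 larger oocytes exceeded the median of the smaller ones, and 7 of 16 and 5 of 7 exceeded every one of them. The 10 DEGs without a symbol had log2 fold changes from 1.57 to 2.28 and adjusted p from 0.000612 to 0.0372. Of all 19 DEGs, 3 had IDs that stand on more than 1 line of the table, whose counts were added.

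All 19 DEGs had a positive change in each replicate taken alone, from 1.66 to 4.51 in replicate 1 and from 1.02 to 2.67 in replicate 2 on the log2 scale, and for 16 of them replicate 1 had the larger change. The 70–79 μm sum lay above both smaller sums for all 19 genes in replicate 1 and for 17 in replicate 2, the exceptions being CALB1 and ENSBTAG00000012296 (an ID singled out after its values were seen). Since these genes were called from the same sums, this describes them and adds no test. The 60–69 μm sum in turn lay above the <60 μm sum for 19 genes in replicate 1 and 17 in replicate 2. Leaving out CALB1, which had 0 counts at <60 μm, differences from <60 μm ranged from 1.72 to 3.96 on the log2 scale. Those from 60–69 μm ranged from 0.17 to 2.22 over all 19. Tested against 60–69 μm alone, 0 genes were called in either direction. Against <60 μm alone 19 were called, all higher, but CLU, FGFBP1 and PSD2 did not pass (edgeR adjusted p = 0.066, 0.080 and 0.066). Over the single oocytes below 80 μm, the Spearman correlation of the level with the diameter ranged from 0.37 to 0.74 in replicate 1 (36 oocytes) and from 0.34 to 0.7 in replicate 2 (33 oocytes).

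Most of the 19 calls depended on single sums. With the replicate block kept, ENSBTAG00000007169 stayed called in all of 22 alternative fits of the sums and ENSBTAG00000039808 in 21, whereas the 9 named DEGs stayed called in 9 (CLU) to 17 (CCL25 and CALB1). Of the 19 genes, 5 stayed called with groups below 80 μm only, 4 with 1 pooled sum below 70 μm, and 6 with all deposited oocytes. Leaving out a 60–69 or 70–79 μm sum kept 2 to 4 of them.

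Seen over all 8 size groups within each replicate, the median of the oocytes was at its lowest at <60 μm for 17 of the 19 DEGs in replicate 1, the exceptions being CLU and FGFBP1, and for all 19 in replicate 2, ties at 0 included. It was highest in a group of 100 μm or more for 18 genes in replicate 1 and for 17 in replicate 2. Since the 19 were called for lower levels below 70 μm, a lowest median at <60 μm is partly fixed by that choice. The share of all genes with either pattern is not given. CCL25 had its highest median, 453 CPM, above 120 μm in replicate 1 and its highest, 75.3 CPM, at 100–109 μm in replicate 2. CLU had medians of 34.7 CPM at 70–79 μm, 34.1 CPM at 80–89 μm and 67 CPM at 100–109 μm in replicate 1, and of 11.7, 4.04 and 13.1 CPM in replicate 2. From 70–79 to 80–89 μm the log2 fold changes of the 19 genes ran from -0.88 to 1.23, with 12 positive and 7 negative.

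When single oocytes were used as units in place of sums, with size group and replicate as terms, edgeR called 834 of 11065 genes (7.54%). Of the genes tested, 3.68% were higher and 3.86% lower at 70–79 μm. All 19 genes of the first test were among those higher, and all 834 had the same sign in the fit of the sums. This fit treats oocytes that may share an animal as independent. Of the 834 genes 188 carried a symbol, 100 higher and 88 lower. The genes named from it below were picked after its values were seen, as the 10 with the smallest adjusted p in each direction that carried a symbol, had the same sign in both replicates and were not among the 19. None of them was called from the sums by edgeR, while DESeq2 on the sums called 7 of the 20, 4 higher (AGMAT, ARHGEF37, C11H2orf81 and EFR3B) and 3 lower (CENPS, CTNNA3 and CCDC102B).

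Of the genes higher at 70–79 μm by this measure, CASP6, an effector caspase, went from medians of 140 and 152.5 CPM below 70 μm (replicates 1 and 2) to 191 and 237.02 CPM, a log2 fold change of 0.57 (edgeR adjusted p = 1.25e-05 over oocytes). ARID1A, the DNA-binding subunit of a BAF chromatin remodelling complex, went from 20.1 and 31.9 to 34.4 and 45.9 CPM. AGPAT1, which makes phosphatidic acid for membrane lipids, went from 24.1 and 22.6 to 50.2 and 35.1 CPM. In replicate 1, 12 of the 16 larger oocytes exceeded every smaller one for AGPAT1, against 1 of 7 in replicate 2.

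ACCSL was by far the most abundant of these genes. It ran from 455.6 through a median of 2147 to 5942 CPM below 70 μm in replicate 1 and from 277.95 through 761 to 1160.2 CPM in replicate 2. At 70–79 μm the medians were 3266.5 and 1492 CPM, and all 7 larger oocytes of replicate 2 lay above the median of the smaller ones. AGMAT, an agmatinase of the polyamine pathway, ARHGEF37 and CEP43, a centrosomal protein, had log2 fold changes of 1, 0.91 and 0.52 over oocytes. EFR3B, which anchors a phosphatidylinositol kinase at the plasma membrane, stayed a low-level transcript, with medians of 1.26 and 3.97 CPM in replicate 1 and of 0 and 1.8 CPM in replicate 2. C8H8orf58 and C11H2orf81, both open reading frames without a name, completed the 10, with log2 fold changes of 2.01 and 0.76.

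CENPS, a histone-fold protein of the kinetochore that also acts in DNA crosslink repair, had the smallest adjusted p among the lower genes (edgeR adjusted p = 3.77e-06 over oocytes). In replicate 1 its lowest, median and highest levels were 39.1, 133 and 356.5 CPM below 70 μm and 19.5, 58.4 and 113 CPM at 70–79 μm. In replicate 2 they were 89.3, 236 and 500 CPM and 65.5, 130 and 211 CPM. All 16 and all 7 larger oocytes lay below the median of the smaller ones of their replicate. The log2 fold change over oocytes was -1.24, while from the sums it was -1.25 ± 0.32 (SE, edgeR adjusted p = 0.188).

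ATP5F1E, the epsilon subunit of the catalytic part of ATP synthase, went from medians of 232.1 and 341 CPM below 70 μm to 81.6 and 207 CPM, and all 16 and 6 of 7 larger oocytes lay below the smaller median. Its spread in replicate 1 was wide, from 7.1 to 490 CPM below 70 μm. CTNNA3, an alpha-catenin of adherens junctions, went from 16.3 and 31.3 to 8.1 and 14.9 CPM. From the sums, the log2 fold changes were -1.24 ± 0.38 for ATP5F1E and -1.24 ± 0.31 for CTNNA3 (SE, edgeR adjusted p = 0.327 and 0.183).

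CCDC102B, a centrosomal linker protein, had the largest drop of the 10, with a log2 fold change of -1.68 over oocytes and medians that went from 9.56 to 3.05 CPM in replicate 1 and from 18.7 to 9.2 CPM in replicate 2. CACYBP, which binds calcyclin, went from 445.2 and 527 to 208 and 299.3 CPM. COMMD3, of the Commander complex that recycles endosomal cargo, went from 287.4 and 336 to 131.1 and 216 CPM, and AGBL5, which trims polyglutamate chains from tubulin, from 48.7 and 82.3 to 30.2 and 56.3 CPM. CCDC90B, a mitochondrial coiled-coil protein, ALKBH1, a nucleic acid demethylase, and ANO10, an anoctamin, had log2 fold changes of -1.01, -1.06 and -0.72 over oocytes. Over all 8 size groups the median of the oocytes was highest at <60 μm for 8 of these 10 genes in replicate 1 and for 7 in replicate 2. This is partly fixed by their choice as lower genes, and the share over all genes is not given. Later levels differed between them. In replicate 1, ATP5F1E had medians of 311, 81.6 and 307 CPM at <60, 70–79 and 110–119 μm, whereas CTNNA3 had 36.1, 8.1 and 12.5 CPM. The median was lowest at 70–79 μm in both replicates for ALKBH1, and for ATP5F1E in replicate 1 only, since its median in replicate 2 was lower at 100–109 μm.

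**Figure D2:**
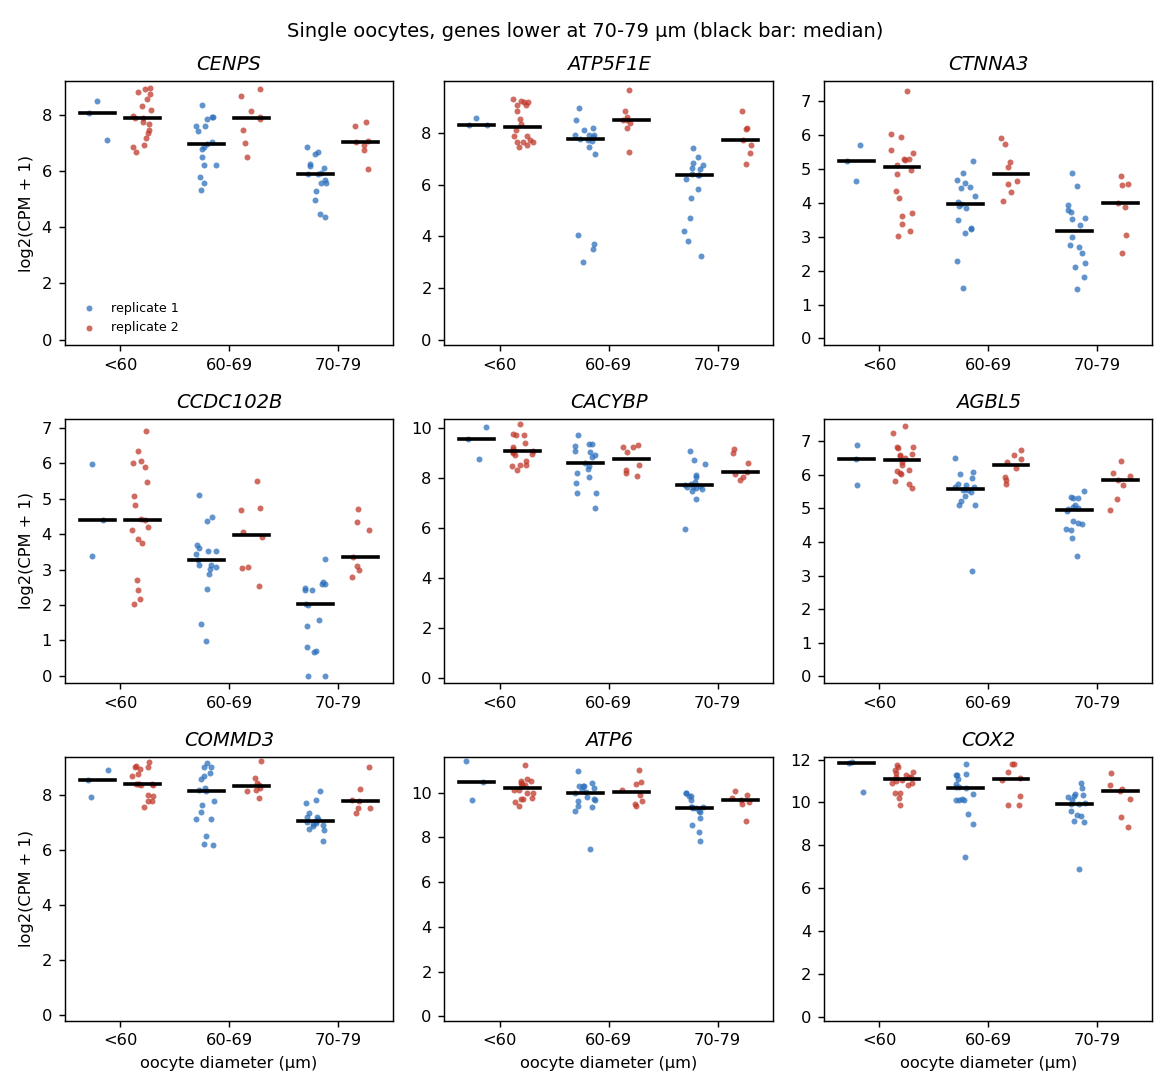
Each point is 1 oocyte, as log2(CPM + 1) on the y axis against the diameter group on the x axis, for 9 genes called lower at 70–79 μm over single oocytes. Blue is replicate 1, red is replicate 2 and black bars are medians. Medians at 70–79 μm lie below those of both smaller groups in each replicate, and the ranges at 60–69 and 70–79 μm overlap in every panel.

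To see how far these calls rest on 1 library batch, each replicate was fitted alone, again with single oocytes treated as independent units. With below 70 μm as a single class, edgeR called 470 of 10649 genes in replicate 1 (4.41%), with 2.23% of the genes higher and 2.19% lower. Replicate 2 gave 1 higher gene of 11305 (0.00885%), ACCSL, described above, and 0 lower, with 592 lower at an unadjusted p below 0.05. With the mean of the 2 smaller groups, the counts were 540 higher and 450 lower in replicate 1 (4.63% and 3.86%, or 8.49% in all), where the <60 μm group is 3 oocytes. The same contrast gave 0 and 0 in replicate 2, where 350 genes were higher and 515 lower at an unadjusted p below 0.05. No other tool was run on the replicates alone.

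The genes called in replicate 1 were then looked up in replicate 2, whose oocytes had no part in the call. Oocytes of 1 animal may lie in both replicates, so the look-up is not known to be one in other animals. With the mean of the 2 smaller groups as the contrast, 85.3% of the higher genes measured there were higher in replicate 2 too and 74 were not, and 91.4% of the lower genes were lower and 38 were not. Over all 10952 genes measured in both, the signs matched in 66.7%. Medians were 0.53 against 1.25 in replicate 1 for the higher genes and -0.41 against -0.95 for the lower ones. Genes picked for passing in replicate 1 tend to have smaller changes elsewhere, so this is no measured difference between the replicates. An unadjusted p below 0.05 in the same direction was reached by 24.1% of the higher and 20.1% of the lower genes, against 3.09% and 4.46% of all genes.

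With below 70 μm as 1 class, a fit chosen after seeing the data, the shares were larger. Here all but 5 of the 470 genes, which were among the higher ones, were measured in replicate 2. Of the higher genes 94% were higher in replicate 2 as well, and 14 were not. Of the lower genes 95.7% were lower, and 10 were not. Over all 10425 genes measured in both, the signs matched in 66.1%. The changes were smaller in replicate 2, with medians of 0.62 against 0.93 for the higher and -0.44 against -0.89 for the lower genes. Here too the genes were picked in replicate 1, so this is partly fixed by that choice. An unadjusted p below 0.05 in the same direction was reached by 82 higher genes (35.3%), against 3.05% of all genes, and by 62 lower ones (26.6%), against 5.08%. Genes are not independent of each other, so no p is given for these shares. A test of whether the change differed between the replicates (size class by replicate in 69 oocytes) called 0 of 11300 genes by edgeR, with 376 at an unadjusted p below 0.05. This test treats oocytes as independent. Replicate 2 held only 7 oocytes of 70–79 μm and the smaller classes differed in make-up, so the lack of calls does not show that the replicates agree. No other tool was run for it.

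**Figure D3:**
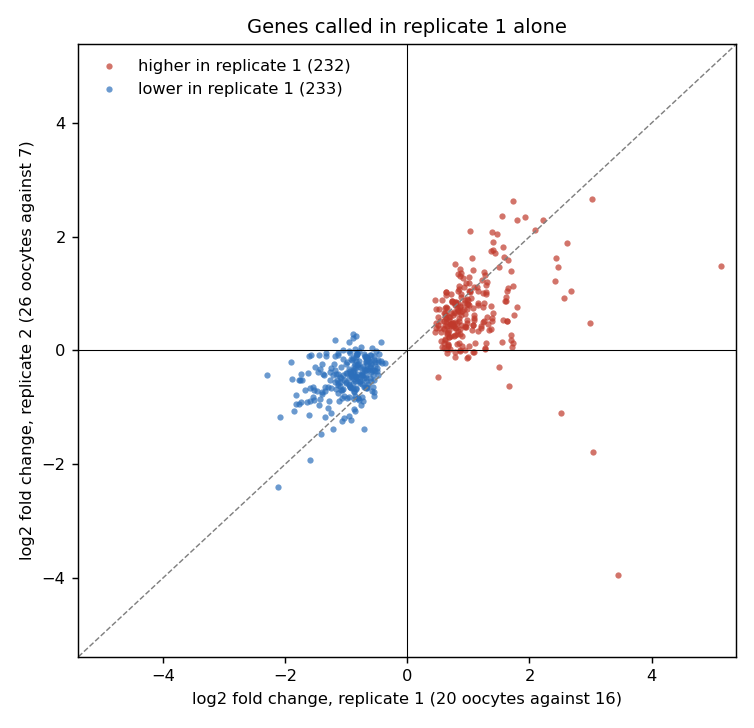
Each point is a gene called in replicate 1 alone (below 70 μm as 1 class), by its log2 fold change in replicate 1 (x axis) and in replicate 2 (y axis), and the dashed line marks equal change. Of the higher genes (red) 94% lie above 0 on the y axis and of the lower genes (blue) 95.7% lie below it, with medians of 0.62 and -0.44 on the y axis against 0.93 and -0.89 on the x axis, and for the mean of the 2 smaller groups, which is not drawn, the shares are 85.3% and 91.4%.

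The gene lists are given by their counts, beside those of all genes tested, of which 7315 had a positive and 6772 a negative change. Among the lists with at least 8 genes tested, ATP synthase subunits stood lowest, with a median log2 fold change of -0.52 from the sums over 17 of the 20 subunits listed. None of the 17 was called from the sums, and 13 were negative, as were 11 in replicate 1 and 13 in replicate 2 taken alone, with medians of -0.63 and -0.30. Over single oocytes 7 of 17 fell and 0 rose, beside 3.86% lower and 3.68% higher over all genes. They were ATP5F1E, ATP5ME, ATP5MJ, ATP5PD and ATP5PO of the nuclear genome and ATP6 and ATP8 of the mitochondrial one. ATP6 went from medians of 1032 and 1106 CPM to 643 and 814 CPM, and all 16 and all 7 larger oocytes lay below the smaller median. The subunits of the catalytic head ATP5F1A, ATP5F1B and ATP5F1C did not pass either test, with log2 fold changes of 0.22, 0.23 and 0.11 from the sums.

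Cytochrome c oxidase subunits and assembly factors had a median of -0.35 over 27 genes, 21 of them negative and none called from the sums. The median was -0.48 in replicate 1 and -0.09 in replicate 2. Over single oocytes 5 of 26 fell (COX2, COX6C, COX7A2, COX17 and COX20) and none rose, beside 3.86% of all genes lower. COX2, which the mitochondrion encodes, had medians of 1646 and 2209 CPM below 70 μm and of 988 and 1491.5 CPM at 70–79 μm, and a log2 fold change of -0.77 (edgeR adjusted p = 0.00847 over oocytes). COX1 from the same genome had -0.48 and did not pass (edgeR adjusted p = 0.269). COX1, COX2, ATP6 and ATP8 together made up a median of 1.07% and 1.52% of the counts below 70 μm in replicates 1 and 2, and of 0.766% and 1.09% at 70–79 μm. The difference went the same way in both replicates, within overlapping ranges. The study had excluded oocytes whose share of reads on mitochondrial genes passed a limit, so these shares come from oocytes selected on that measure.

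Among the TGF-beta family, where 9 of 15 genes were positive and none was called from the sums, BMP15 was abundant in every oocyte. This growth factor is secreted by the oocyte towards the granulosa cells. It ran from 452.1 through a median of 816 to 2098 CPM below 70 μm in replicate 1, and all 16 oocytes of 70–79 μm lay above that median, at 842 through 1218 to 2133 CPM. In replicate 2 the medians were 806 and 856 CPM. The log2 fold change was 0.63 ± 0.33 from the sums (SE, edgeR adjusted p = 0.703) and 0.58 over oocytes (edgeR adjusted p = 0.0271), so the call rests on the oocyte fit, and it was 0.95 in replicate 1 and 0.23 in replicate 2.

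The other lists held few or no calls, and the genes named from them over oocytes are those called there. In the chaperone list 1 of 18 genes was called from the sums, which was CLU, while BAG3, a co-chaperone of HSP70, was lower over oocytes (log2 fold change -0.67, edgeR adjusted p = 0.0112). From the sums 1 gene was called in the calcium handling list of 23, which was CALB1. Over all genes tested, 0.135% were called from the sums. Over oocytes, acyl-CoA and fatty acid genes had 4 of 38 higher and 0 lower, namely ACLY, which makes cytosolic acetyl-CoA, CPT1A, which moves fatty acids into mitochondria, ACOT8 and ACBD3. The DNA damage response had 0 higher and 2 of 17 lower, CHEK1 and BABAM2. Chromatin readers and remodelers had 3 of 38 higher (ARID1A, BRD9 and BRPF3) and 1 lower (CBX5, a heterochromatin protein). The anaphase-promoting complex and spindle list had 1 of 38 higher, the kinase AURKB, and 3 lower, ANAPC13, CDC26 and CENPS. Cyclins and their kinases had CDK2 higher and CCNH, CCNK and CDK11B lower, of 38. With a background of 3.68% higher and 3.86% lower over all genes, 1 to 4 calls in a list of this size are given as values only.

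**Figure D4:**
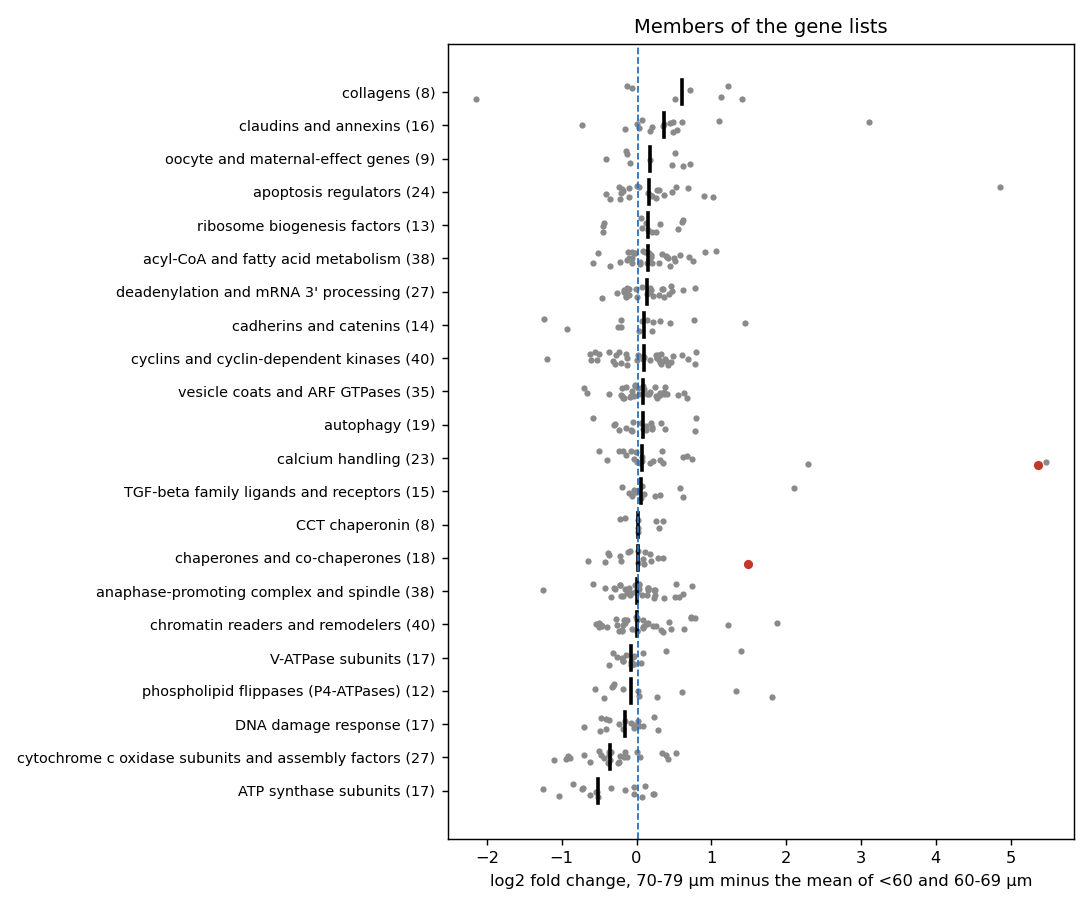
Each point is the log2 fold change of 1 list member from the sums (x axis), by list with at least 8 members tested (y axis, number tested in brackets). Black bars are list medians, the dashed line is the median of all genes (0.02) and red points are the 2 called genes CLU and CALB1. ATP synthase subunits (-0.52) and cytochrome c oxidase genes (-0.35) have the lowest medians.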

How the data were processed

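Polyadenylated mRNA of single oocytes was amplified by a Smart-seq2 procedure. The authors trimmed reads with Trim Galore 0.6.6, aligned them to ARS-UCD1.2 (bosTau 9) with HISAT2 and counted them with SeqMonk, and the deposited values are raw counts per gene, with no normalization or batch correction. Treatment of strand, multiple alignments and overlapping genes is not given in the sources used here. The 23161 lines were summed to 21218 gene IDs. Symbols came from incomplete lists of the study, which paired 3593 IDs (2924 of those tested), and the RefSeq table gave no Ensembl ID.

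Counts were summed per size group and replicate (16 sums of 165 oocytes), filtered with filterByExpr (minimum count 10), scaled by TMM and tested with edgeR 4.0.16 (quasi-likelihood, R 4.3.3), with Benjamini-Hochberg adjustment over all genes and calls below 0.05. Standard errors are the log2 fold change divided by the square root of F. Levels of oocytes are CPM on TMM-scaled library sizes, drawn as log2(CPM + 1), where log2 differences of low genes are understated. Log2 changes within a replicate come from log2 CPM of the sums with a prior count of 2. The replicate number marks a library batch with its own read length, per the study's methods. Deviations from the group means correlated across the 28 pairs of size groups with r from 0.398 to 0.694, so the numbers pair the sums. The fit was tested on simulated data. Alternatives were RLE scaling, DESeq2 1.42.0, no filter, ComBat-seq (sva 3.50.0), thinning to 250000 counts, all 179 oocytes, other groupings, and leaving out each sum.

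The size groups, gene lists and named genes were chosen with earlier results of these data known. Genes named were the called ones with a symbol and the same sign in both replicates (10 per direction by adjusted p, 5 by CPM difference), 2 called IDs per direction without a symbol, BMP15, COX1, COX2, ATP6 and ATP8, and 2 members of each list by adjusted p. GDF9, NLRP5, PADI6, ZP2, ZP3 and ZP4 had no paired ID.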

Additional observations from a re-analysis of the deposited data

How the results depend on the processing

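The number of genes called depended on the unit and the block. Against 19 genes, all higher, the sums gave 0 without the replicate block, 60 without the filter (58 higher, 2 lower), 81 with DESeq2 (69 and 12), 33 at 250000 counts per oocyte (32 and 1), 7 with all deposited oocytes, 5 with groups below 80 μm only and 4 with 1 pooled sum below 70 μm, the last 3 all higher. RLE scaling gave 18 and IDs on a single line 16, all higher. Single oocytes gave 834, or 922 with ComBat-seq counts. Fitted by replicate, they gave 990 for the first and 0 for the second. As 2 size classes, a fit chosen after seeing the data, they gave 707 in all (3.04% of genes higher, 3.35% lower), 470 in the first replicate and 1 in the second. Leaving out 1 sum gave 2 to 176 genes: 176 (161 higher, 15 lower) without <60 μm replicate 2, 13 without <60 μm replicate 1, 3 and 5 without 60–69 μm replicates 1 and 2, and 2 and 6 without 70–79 μm replicates 1 and 2. The cause was not tested.

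None of the 19 genes changed direction under any alternative in which it was measured, but over these 19 genes and the alternatives the call was kept in 418 cases and lost in 187. ACTA2, a smooth muscle actin among the stroma markers (0.32 from the sums, not called), reversed to -0.10 with all deposited oocytes and to -0.11 and, as 2 size classes, -0.031 in replicate 2 alone, and ranged from -0.15 to 1.14 when 1 sum was left out. COL1A2 (1.41, not called) reversed to -0.019 in replicate 2 alone, and CLDN5 (3.10, not called) to -0.20 without 70–79 μm replicate 2, and otherwise ranged up to 4.62 when 1 sum was left out. The replicate test called 0 genes also with 3 size groups (647 of 12213 at an unadjusted p below 0.05).

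Depth limits the low genes: a count of 0 in a sum of <60 μm allows up to 0.22 CPM in replicate 1 and 0.0634 CPM in replicate 2. With 2 sums per group, smaller changes may have gone uncalled.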

Other observations

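Lists not described so far held these values from the sums, with no gene called by edgeR in any of them. Collagens had a median log2 fold change of 0.61 over 8 genes (1.10 in replicate 1 and 0.10 in replicate 2), led by COL1A2 at 1.41 ± 0.58 (SE, edgeR adjusted p = 0.592). This fibrillar collagen of stroma had 3.24 in replicate 1 and -0.03 in replicate 2, and it was called over single oocytes (edgeR adjusted p = 0.0158). Claudins and annexins had a median of 0.36 over 16 genes, of which 2 were negative from the fit, 5 in replicate 1 and 6 in replicate 2, beside 6772 negative of 14087 over all genes. Over single oocytes their median was 0.09 and the 1 gene called, ANXA3, was lower (edgeR adjusted p = 0.0103). CLDN11, a tight junction protein, had 2.61 in replicate 1 and 0.12 in replicate 2. CD44, a hyaluronan receptor counted among the cumulus markers, had 1.65 and 0.38.

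Among phospholipid flippases, which move lipids between the leaflets of a membrane, ATP11A had 1.60 in replicate 1 and 1.33 in replicate 2 (edgeR adjusted p = 0.248 from the sums and 0.00226 over oocytes), while ATP8B1 had -0.41 and -0.70 and was called lower over oocytes (edgeR adjusted p = 0.0206). The list's median was -0.08 over 12 genes. V-ATPase subunits, which acidify vesicles, had a median of -0.07 over 17 genes, 13 of them negative. The 1 subunit called over oocytes, ATP6V1C1, was lower (edgeR adjusted p = 0.00846), and ATP6V1B1 stood highest from the sums at 1.40 ± 0.42 (SE, edgeR adjusted p = 0.327). The CCT chaperonin had a median of 0.02 over 8 genes, with CCT2 called lower over oocytes (edgeR adjusted p = 0.0342). Ribosome biogenesis factors had 0.16 over 13 and autophagy genes 0.09 over 19. No member of these last 2 lists was called over single oocytes. Cadherins and catenins had 0.11 over 14 genes (CDH1 higher and CTNNA3 lower over oocytes), vesicle coats and ARF GTPases 0.09 over 35 (AP1S1 and AP3D1 higher, AP1S2 lower), deadenylation and 3' processing factors 0.14 over 27 (CSTF2 higher) and apoptosis regulators 0.17 over 24 (CASP6 higher).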
